A study of Mus musculus with 8 samples.

Results

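The genes described here are 6 genes of mouse chromosome 4 that serve cytokine signalling of the LIF type: the receptor genes Cntfr, Il11ra1, Csf3r and Lepr, the small membrane protein gene Leprot and the kinase gene Jak1. They were taken by name, and a gene's value is the mean timing score of the 5 kb bins that overlap it in mm10 RefSeq coordinates. All 6 had a score, out of 1301 protein-coding genes of the chromosome with one. The scores came from mouse embryonic stem cells (labelled mESC), as JM8N4 control cells and as cells with a Klf4 enhancer deletion, with no treatment or further allele named in the labels. Newly made DNA was labelled with BrdU for 2 h, and 40000 cells each of early and late S phase gave 1 library apiece (Repli-seq). The 8 libraries make 4 profiles, 2 per genotype, numbered 1 and 2. The sources used here do not say how many clones or cultures were used or whether 1 or both alleles were deleted, so the spread between profiles may be technical. The cell type could not be checked against markers, because timing carries no expression values.

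Cytokines of this type bind a receptor that sits on the cell surface without enzyme activity of its own. Janus kinases bound to the receptor's inner part, Jak1 among them, then phosphorylate the receptor and STAT transcription factors. In mouse embryonic stem cells the cytokine LIF acts through this route to hold the naive pluripotent state, and Klf4 is a known target of STAT3 there. Replication timing is a regional property, in which large domains that replicate early tend to be gene-rich and open and those that replicate late tend to be gene-poor. A higher score stands for earlier replication here, as regions scoring above 0 held 15.1 protein-coding genes per Mb and those below 0 held 2.96. The score has no unit, and no read counts were analysed here, so the depth behind it is unknown.

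Over the chromosome the 4 profiles were close, with Pearson correlations of 0.967 to 0.989 across 30659 positions, which are not independent. Profile medians differed, from -0.79 in control 1 to -0.21 in deletion 2, and at the median position deletion exceeded control cells by 0.16. Deletion replicate 2 was the highest of the 4 profiles at 60.6% of genes. It stood more than 1 score unit above the highest of the other 3 at only 15 genes, or 1.15%. Jak1, Leprot and Lepr are among those 15, so their differences are also given without that profile.

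The 6 genes lie at 3 loci, so they are not independent of each other. Cntfr (chr4:41657498-41697091) and Il11ra1 (chr4:41760443-41769473) are 63.4 kb apart. Jak1 (chr4:101151974-101265282), Leprot (chr4:101647783-101659364) and Lepr (chr4:101717137-101815352) lie within one stretch of 663 kb. Csf3r (chr4:126023441-126044975) stands alone, 24.2 Mb above Lepr. No bin was shared between any pair of them, but neighbouring bins hold closely similar scores, as smoothed values do.

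The sequences just upstream of 3 of these genes are shown because Jak1 and Leprot carry the largest single-profile shift described below and Il11ra1 does not. They are the bases before the first-listed RefSeq start (GRCm38.p6, the mm10 build) that lie outside the annotated gene, 5′ to 3′ on the gene's strand, with CG dinucleotides in capitals. They cover chr4:101265283-101265473 on the minus strand for Jak1, chr4:101647533-101647782 on the plus strand for Leprot and chr4:41760193-41760442 on the plus strand for Il11ra1.
Jak1: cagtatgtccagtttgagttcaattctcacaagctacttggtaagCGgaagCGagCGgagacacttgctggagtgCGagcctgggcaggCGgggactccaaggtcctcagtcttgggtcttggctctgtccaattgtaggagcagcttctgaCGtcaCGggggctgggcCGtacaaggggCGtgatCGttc
Leprot: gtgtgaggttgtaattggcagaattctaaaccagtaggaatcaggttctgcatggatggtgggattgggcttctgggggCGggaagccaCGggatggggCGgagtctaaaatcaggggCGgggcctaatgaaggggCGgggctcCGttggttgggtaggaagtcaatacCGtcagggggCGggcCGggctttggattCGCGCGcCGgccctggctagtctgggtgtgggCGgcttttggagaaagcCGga
Il11ra1: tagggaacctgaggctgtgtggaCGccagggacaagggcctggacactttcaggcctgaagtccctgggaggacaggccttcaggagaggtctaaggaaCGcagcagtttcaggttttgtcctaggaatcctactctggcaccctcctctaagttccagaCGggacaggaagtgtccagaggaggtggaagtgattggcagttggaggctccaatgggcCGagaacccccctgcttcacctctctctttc

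CG content upstream differed among the 6 genes, and a link to the timing scores was not tested. All 6 genes matched a RefSeq promoter. In the 250 bases before the start, Cntfr held 37 CG dinucleotides, Jak1 19, Leprot 15, Lepr 10, Csf3r 6 and Il11ra1 4, where the median of 1067 protein-coding promoters of the chromosome was 12. Promoters with at least as many CG as Cntfr made up 3.66% of them, and with at least as many as Il11ra1 75.7%. The GC box GGGCGG, searched on both strands, matched at 6 places in Leprot, 1 in Jak1 and 1 in Cntfr and at none in the other genes, and 49.95% of the promoters held it. Each such match contains a CG counted above. For Cntfr, Csf3r and Lepr the whole window lay inside the annotated gene. For Jak1, 191 of the 250 bases lay outside it. Those bases, shown above, hold 10 of the 19 CG and no GC box. The letters TTCNNNGAA, the core that STAT proteins are known to bind, which reads the same on both strands, had no match in the 6 windows and were held by 5.81% of promoters.

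Csf3r, Cntfr and Il11ra1 replicated early in every profile, and limma called no genotype difference at them. Csf3r encodes the receptor for granulocyte colony-stimulating factor, a cytokine of neutrophil formation. It scored 2.97 and 3.27 in control 1 and 2 while deletion 1 was at 2.79 and deletion 2 at 3.34, so the deletion profiles enclosed the controls. The control mean was 3.12 ± 0.22 and the deletion mean 3.07 ± 0.39 (SD, n = 2 each), a difference of -0.05 (SE 0.35; limma over all genes, adjusted p = 0.999). Within number 1 the difference was -0.18 and within number 2 it was 0.07, both smaller than the SD of the deletion profiles.

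Cntfr encodes the receptor subunit for ciliary neurotrophic factor, which joins LIFR and gp130 on the cell surface. Control 1 was at 2.39, control 2 at 3.24, deletion 1 at 2.60 and deletion 2 at 3.07. The control profiles were farther apart than the genotypes, with a control mean of 2.81 ± 0.60 and a deletion mean of 2.84 ± 0.33 (SD, n = 2 each). These differed by 0.02 (SE 0.36; limma, adjusted p = 0.999), with 0.22 within number 1 and -0.17 within number 2.

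Il11ra1 encodes the receptor subunit for interleukin 11, which also works with gp130. It scored 2.39 and 2.68 in control 1 and 2, and deletion 1 was higher (2.78) but deletion 2 was not (2.45). Its means were 2.54 ± 0.21 and 2.62 ± 0.24 (SD, n = 2 each), and the difference of 0.08 (SE 0.34) did not pass the test (limma, adjusted p = 0.999). The sign was again not the same within the numbers, at 0.39 in number 1 and -0.24 in number 2. Il11ra1 has a close paralog on the chromosome, Il11ra2. Its score is uncertain to that extent, since the sources do not say how reads that map to both were handled. With medians centred or quantiles equalised, Cntfr and Il11ra1 had differences below 0.

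The surroundings of these early genes were not flat. Cntfr and Il11ra1 lie on a slope. Within 500 kb of the middle of Cntfr the highest bins reached 3.17 in deletion 1 to 3.84 in deletion 2, and all lay on the lower-coordinate side. The lowest bins were 0.38 in deletion 2 to 0.92 in control 1, 303 kb to 448 kb away on the other side. Between the genes control 1 was at 2.22, control 2 at 2.94, deletion 1 at 2.80 and deletion 2 at 2.68, so the genotypes overlapped. Next to Csf3r, the 309 kb up to Grik3, a glutamate receptor gene, scored 2.34 in control 1, 2.71 in control 2, 2.39 in deletion 1 and 3.35 in deletion 2. Deletion replicate 2 alone stood apart there, by up to 1.25 at a bin 263 kb below Csf3r, while over Csf3r itself it exceeded the highest of the others by only 0.07. The difference of this interval, 0.34, was 0.05 within number 1 and 0.64 within number 2 (p = 0.667 by an exact permutation test, two-sided, which with this few profiles cannot go below 0.3333).

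**Figure D1:**
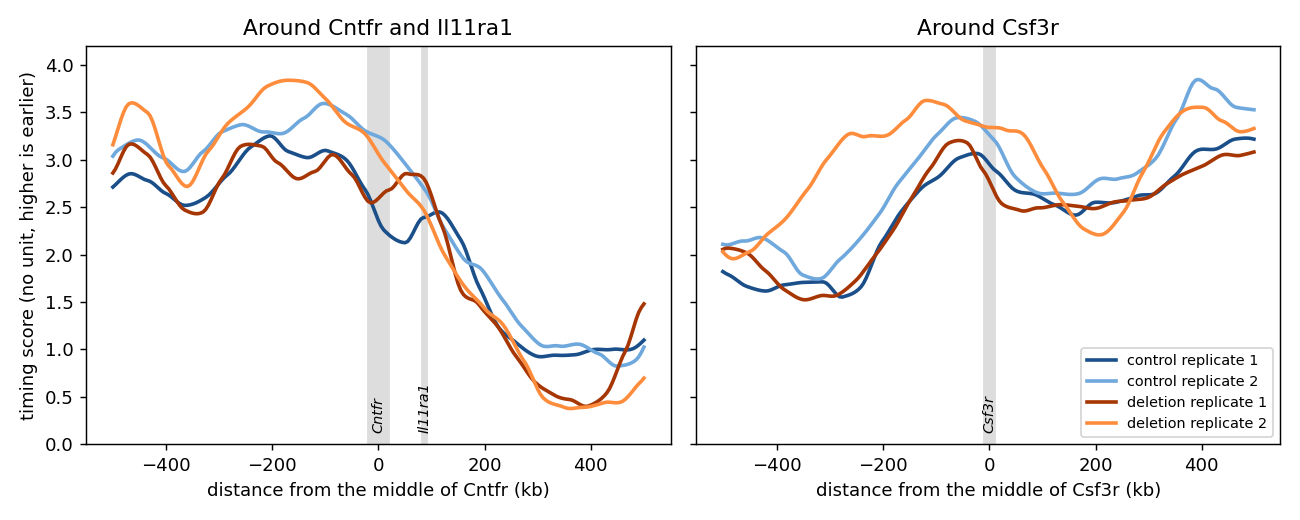
Timing score (vertical axis, no unit) against distance in kb from the middle of Cntfr (left) and of Csf3r (right) for the 4 profiles, with genes as grey bands. At Cntfr and Il11ra1 the profiles cross, and beside Csf3r deletion replicate 2 lies above the others on the side of Grik3.

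Jak1 and Leprot scored below all of Csf3r, Cntfr and Il11ra1 in 3 of the 4 profiles, and Lepr did so in all 4. In deletion replicate 2 Jak1 was still below Csf3r, and Leprot below Csf3r and Cntfr. Jak1, Leprot and Lepr were each higher in deletion replicate 2 than in any other profile. Jak1, the kinase that binds gp130 and many other cytokine receptors, scored 1.91 and 1.72 in control 1 and 2, 1.84 in deletion 1 and 3.31 in deletion 2. Deletion replicate 1 lay between the controls, and deletion replicate 2 lay 1.40 above the highest of the other profiles, whose own range was 0.19. The means were 1.81 ± 0.14 and 2.57 ± 1.04 (SD, n = 2 each). The difference of 0.76 (SE 0.39) was smaller than the SD of the deletion profiles and did not pass the test (limma, adjusted p = 0.999). It was -0.07 within number 1 and 1.59 within number 2. Without deletion replicate 2 it was 0.02.

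Leprot encodes a small membrane protein, known to limit the amount of leptin receptor at the cell surface, and lies at the 5′ side of Lepr. It scored 1.08 and 0.93 in control 1 and 2, 1.11 in deletion 1 and 2.76 in deletion 2. Both deletion profiles lay above both controls, but deletion 1 did so by 0.03. The means were 1.01 ± 0.11 and 1.93 ± 1.16 (SD, n = 2 each), and the difference was 0.93 (SE 0.40; limma, unadjusted p = 0.0273, adjusted p = 0.999). It was 0.03 within number 1 and 1.82 within number 2, and 0.11 without deletion replicate 2.

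Lepr, the leptin receptor, a relative of gp130, was the latest of the 6 genes and lay close to a score of 0. It scored -0.20 and 0.16 in control 1 and 2, -0.43 in deletion 1 and 1.21 in deletion 2. The deletion profiles were thus the lowest and the highest of the 4. Means were -0.02 ± 0.26 and 0.39 ± 1.16 (SD, n = 2 each), with a difference of 0.41 (SE 0.40; limma, adjusted p = 0.999). That difference was -0.23 within number 1 and 1.05 within number 2, and it turned to -0.41 without deletion replicate 2.

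**Figure D2:**
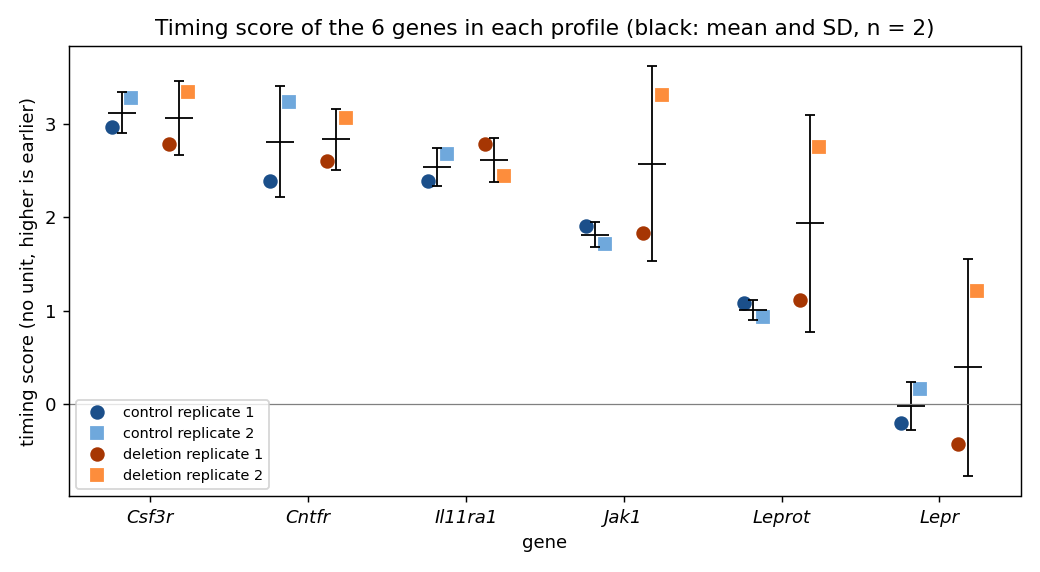
Timing score (vertical axis, no unit) of the 6 genes in each of the 4 profiles, with group mean and SD in black (n = 2). For Jak1, Leprot and Lepr deletion replicate 2 sits at 3.31, 2.76 and 1.21, above the other 3 profiles, while at Cntfr, Il11ra1 and Csf3r the profiles of both genotypes overlap.

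By limma, 0 of the 6 genes were called at an adjusted p under 0.05 and 1, Leprot, had an unadjusted p under 0.05. Over all 1301 genes, 0% were called, and 17 (1.31%) had an unadjusted p under 0.05. On simulated scores the same fit made no calls when a known shift was added to both deletion profiles. That shift was about the size of the mean difference at Jak1 and Leprot. An absence of calls thus does not show that such a shift is absent. At those genes the difference lay mostly in deletion replicate 2, a setting that was not simulated. The median difference of the 6 genes was 0.25, beside 0.14 for all genes. Without deletion replicate 2 these medians were -0.09 and -0.06. Of the 6, 5 had a difference above 0, against a background of 70.6% of all genes, and 1 had both deletion profiles above both controls, against 15.1%. None had both deletion profiles below both controls, against 6.53%. Relative to the chromosome's median shift, 3 of the 6 were above 0, beside 599 of all 1301 genes. The difference was above 0 within both replicate numbers for 1 of the 6, Leprot, against 43.7% of all genes, and its value in number 1 turned to -0.03 after median centring and -0.10 after quantile normalization.

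The order by mean score over the 4 profiles was Csf3r (3.09), Cntfr (2.82), Il11ra1 (2.58), Jak1 (2.19), Leprot (1.47) and Lepr (0.19). For every pair of neighbours in that order the ranges over the 4 profiles overlapped. Csf3r lay above Cntfr, Jak1 above Leprot, and Leprot above Lepr in 4 of 4 profiles, Il11ra1 above Jak1 in 3 and Cntfr above Il11ra1 in 2. Genes with a higher mean score made up 14.1% of the chromosome's genes for Csf3r and 80.2% for Lepr. Without deletion replicate 2 the order was the same, and these shares were 13.1% and 81.9%. All but Lepr were above 0 in every profile, as were 79.7% of all genes. The order was the same after median centring, quantile normalization and with positions read as bin ends.

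The stretch from the lower end of Jak1 to the upper end of Lepr averaged 1.30 and 1.32 in control 1 and 2, 1.38 in deletion 1 and 2.50 in deletion 2, over 134 bins. The first 3 profiles were within 0.08 of each other, and deletion replicate 2 was 1.12 above them. The control mean was 1.31 ± 0.01 and the deletion mean 1.94 ± 0.79 (SD, n = 2 each). Their difference of 0.64, or 0.48 relative to the chromosome's median shift, gave p = 0.3333 in an exact permutation test (two-sided), the smallest value possible here. It was 0.08 within number 1 and 1.19 within number 2. It was 0.07 without deletion replicate 2 and 1.20 without deletion replicate 1, so its size rested on 1 profile. Of the 134 bins limma called 0 at an adjusted p under 0.05, with 14 at an unadjusted p under 0.05, all within Dnajc6, and over all positions 0% were called and 0.975% had an unadjusted p under 0.05.

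In shape, the profiles shared a high point near the start of Jak1 and a lower shelf towards Lepr. The high point was 2.27 in control 1, 2.20 in control 2, 2.29 in deletion 1 and 3.65 in deletion 2. It lay 4.78 kb, 19.8 kb and 59.8 kb from the start of Jak1 on the Lepr side in the first 3, and 20.2 kb inside the gene in deletion 2 (-20.2 kb). Each profile then dropped to a low point near Ak4, at 1.66, 1.59, 1.80 and 1.99 in the same order. On the slope before the low point deletion replicate 2 came closest to the others, with a gap of 0.06 at a bin 105 kb from the start of Jak1. A further high point followed. It was shallow in the first 3 profiles, at 1.78, 1.63 and 1.90, and at 3.04 in deletion 2, where it lay within Dnajc6, 315 kb from the start of Jak1. In deletion replicate 2 the stretch thus had a pair of separate maxima, one at Jak1 and one at Dnajc6, with Ak4 between them.

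**Figure D3:**
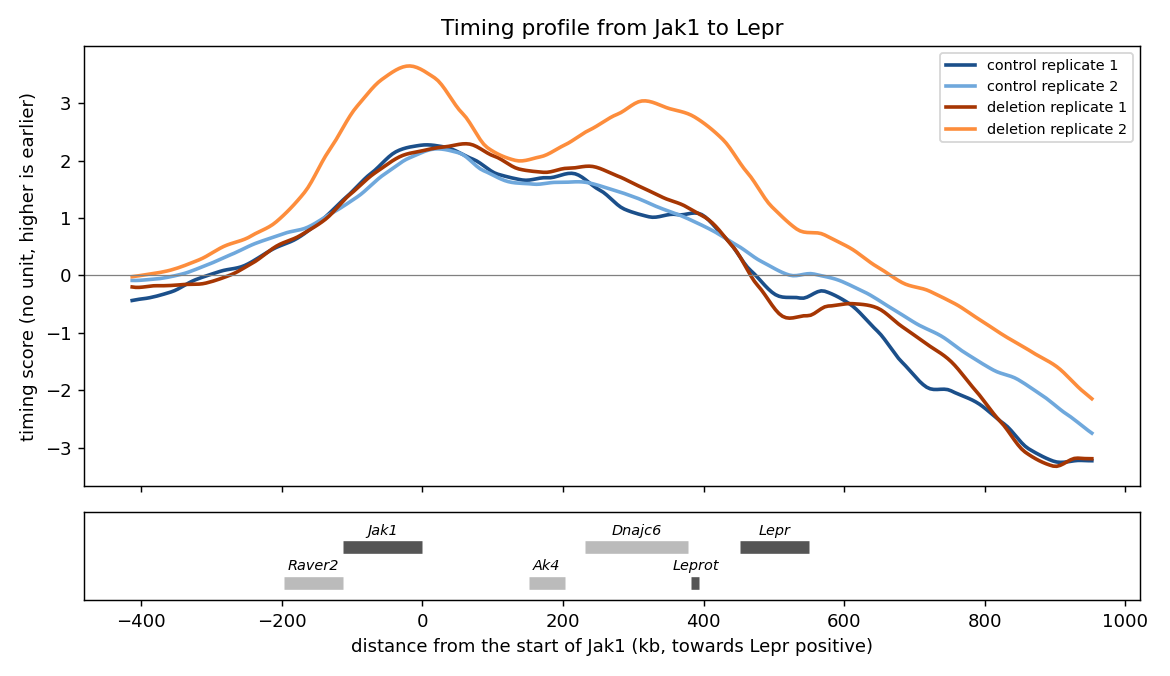
Timing score (vertical axis, no unit) of the 4 profiles against distance from the start of Jak1 in kb, with protein-coding genes below (members dark). Deletion replicate 2 has maxima of 3.65 near Jak1 and 3.04 over Dnajc6, and the other 3 profiles lie closer to each other, with deletion replicate 1 highest of them over Dnajc6.

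The genes between Jak1 and Lepr followed this shape. Ak4, which encodes an adenylate kinase of mitochondria, scored 1.70, 1.60, 1.82 and 2.12 in control 1 and 2 and deletion 1 and 2, a difference of 0.32 (SE 0.34; limma, adjusted p = 0.999). Dnajc6, which encodes auxilin, a factor that strips clathrin from vesicles, scored 1.20, 1.33, 1.57 and 2.84 in the same order. Its difference of 0.94 was 0.37 within number 1 and 1.51 within number 2. At Ak4 and Dnajc6, as at Leprot, both deletion profiles lay above both controls on the scores as deposited. After median centring this held at Dnajc6 only. At Ak4 deletion 2 was then below control 1, and at Leprot the difference within number 1 was -0.03. Raver2, an RNA-binding protein gene that overlaps the lower end of Jak1 by 397 bases, scored 0.87, 0.92, 0.86 and 1.74. Beyond Lepr, Pramel17, 19.6 kb away, scored -0.28, -0.02, -0.56 and 0.70. On the scores as deposited, deletion replicate 2 was the highest profile at each of these genes. It was so at 134 of 134 bins of the stretch, against 60.7% of all positions. At Ak4 this did not hold after rescaling. There, deletion replicate 2 minus the highest other profile was -0.22 after median centring and -0.16 after quantile normalization. Both deletion profiles were above both controls in 78 bins (58.2%), against 16% of all positions, and below both in 0, against 5.86%. These bins were likewise counted on the scores as deposited. Neighbouring bins hold closely similar scores, so the bins of the stretch are not separate observations.

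Lepr spans a drop below 0 in every profile but deletion replicate 2, on the scores as deposited. Its first bin, at the 5′ end, scored 0.31, 0.49, 0.31 and 1.95 in control 1 and 2 and deletion 1 and 2, and its last bin -0.35, 0.03, -0.70 and 0.74. On this side the score first dropped below 0 within the gene in the first 3 profiles, at 22.9 kb, 72.9 kb and 12.9 kb from its lower end. In deletion replicate 2 it did so 115 kb above the upper end of Lepr. On the other side, the score first went below 0 at 310 kb, 355 kb, 280 kb and 405 kb from the start of Jak1 (-310, -355, -280 and -405 kb). The unbroken span above 0 that holds Jak1 was 780 kb, 875 kb, 740 kb and 1065 kb wide in control 1 and 2 and deletion 1 and 2. Deletion replicate 1 had the narrowest span and deletion replicate 2 the widest.

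The gap of deletion replicate 2 over the other profiles was largest between Leprot and Lepr. At the bin from 101695000 the other 3 profiles all scored 0.64 and deletion replicate 2 scored 2.30, a gap of 1.66. The gap exceeded 1 in 77 of the 134 bins (57.5%), beside 2.06% of all positions. Those bins belonged to 2 of the 30 unbroken runs of such bins on the chromosome, 175 kb wide over Jak1 and 235 kb wide from Dnajc6 into Lepr. The latter run held the largest gap of all 30 and tied for the second in length. In Ak4 none of the 11 bins had a gap above 1. The run of bins in which deletion replicate 2 was the highest profile at all was 1580 kb long, from 100830000 to 102409999. It held 15 protein-coding genes from Cachd1 to Pde4b. These bin counts and runs use the scores as deposited, where deletion replicate 2 had the highest profile median. After median centring the gene gap was 0.82 at Jak1, 0.75 at Dnajc6 and 0.83 at Lepr, each below 1, and 1.09 at Leprot.

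By gene, the gap was 1.64 at Leprot, 1.40 at Jak1, 1.27 at Dnajc6 and 1.05 at Lepr, which ranked 1, 2, 3 and 8 from the highest of 1301 genes, where the median was 0.11. After median centring it was 1.09, 0.82, 0.75 and 0.83, with ranks 1, 4, 5 and 3. After quantile normalization it was 1.16, 0.87, 0.88 and 0.86, with ranks 1, 3, 2 and 4. The difference within number 2 ranked 1 for Leprot and 2 for Jak1 under all 3 scalings. These ranks describe one profile against the others and carry no test. At Cntfr and Il11ra1 deletion replicate 2 was below the highest of the others, by -0.17 and -0.34, and at Csf3r it was 0.07 above.

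**Figure D4:**
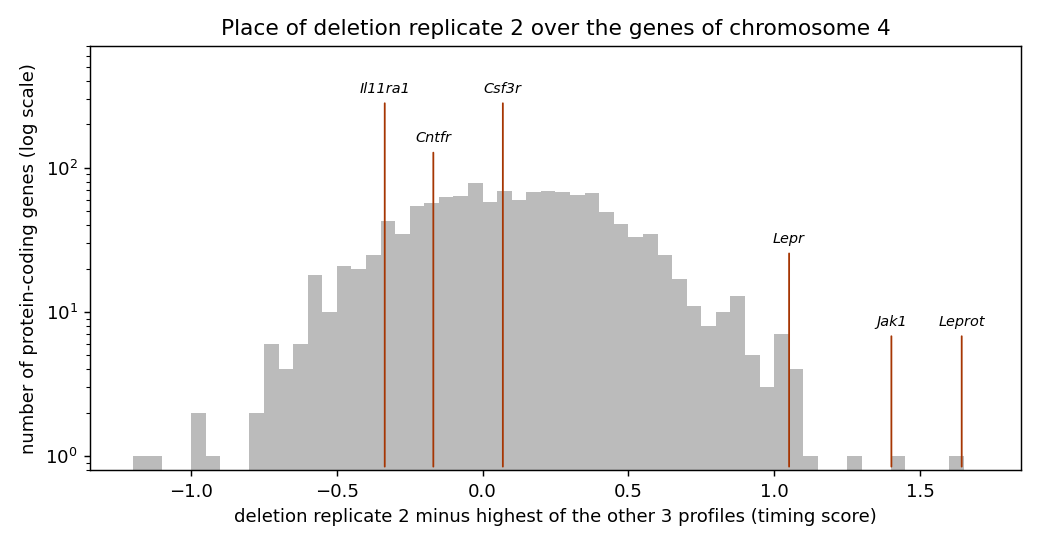
Number of protein-coding genes (vertical axis, log scale) by the score of deletion replicate 2 minus the highest of the other 3 profiles (horizontal axis). Lines mark the 6 genes, with Leprot at 1.64, Jak1 at 1.40 and Lepr at 1.05 in the upper tail and Csf3r, Cntfr and Il11ra1 in the bulk.

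Leaving out deletion replicate 1 instead made the remaining deletion profile number 2 alone, so genotype is mixed with replicate number in that fit and the lone profile is assumed to vary like the controls. In it limma called 4 of 1301 genes (0.307%), all higher. Those in the stretch were Leprot (1.75, adjusted p = 0.00338), Dnajc6 (1.58, adjusted p = 0.0142) and Jak1 (1.50, adjusted p = 0.0206). Lepr differed by 1.23 there and did not pass (adjusted p = 0.0779). In the fit without deletion replicate 2, Jak1, Leprot and Lepr differed by 0.02, 0.11 and -0.41, and limma called 0 of 1301 genes, with 13 at an unadjusted p under 0.05. The controls left out in turn gave 0 called genes as well, with 2 and 23 at an unadjusted p under 0.05.

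**Figure D5:**
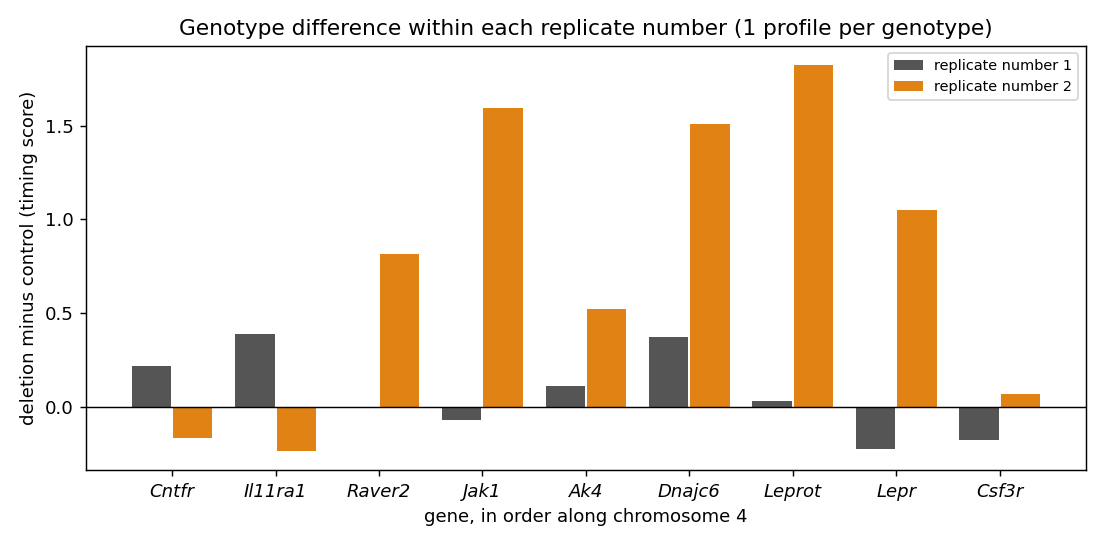
Deletion minus control score (vertical axis) within replicate number 1 (grey) and number 2 (orange), 1 profile per genotype, for genes in order along the chromosome. From Raver2 to Lepr the number 2 bars reach 0.52 to 1.82 while the number 1 bars stay between -0.23 and 0.37.

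Of 30 other cytokine receptor, interferon and signalling genes on the chromosome limma called 0 as higher and 0 as lower, with 0 at an unadjusted p under 0.05, and the list's median difference was 0.23, beside 0.14 for all genes. Ifnlr1 and Il22ra1, receptors for interferon lambda and interleukin 22 that signal through Jak1, scored 2.85 or more in every profile, with differences of 0.40 and 0.34. Il11ra2, the paralog of Il11ra1, was later, at 1.22, 1.01, 0.91 and 0.46 in control 1 and 2 and deletion 1 and 2, and both of its deletion profiles lay below both controls.

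Among the 18 interferon genes, whose products signal through Jak1 and many of which are near-identical copies whose short-read scores are uncertain, 12 scored above 0 in every profile (79.7% of all genes did) and 3 below 0 (16.6%). All 18 differences were above 0, against 70.6% of all genes. Relative to the chromosome's median shift 14 were above 0, beside 599 of all 1301 genes. Of the 18, 17 lie in one cluster of 358 kb from Ifnb1 to Ifne, so they are not separate observations. The median difference within the numbers was 0.55 in number 1 and -0.08 in number 2, the reverse of the order at Jak1, Leprot and Lepr. Ifnb1 scored -1.13, -0.69, -0.94 and -0.57. Of the 8 signalling genes, 4 differed by more than 0 and 4 by less. Lck, a T cell kinase, scored 2.27, 2.47, 2.03 and 2.18 in control 1 and 2 and deletion 1 and 2. Rps6ka1, a kinase of the MAP kinase route, scored 2.05, 1.83, 1.63 and 1.61. Both deletion profiles were below both controls for these 2 genes and Il11ra2, 3 of the 30 listed, beside 6.53% of all genes. Klf4 itself scored 2.24, 2.73, 1.77 and 2.89, so the genotypes overlapped.

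The genes with the most similar scores over the 4 profiles were sought among 964 genes more than 5 Mb from all 6, by Euclidean distance. Slc45a1 (distance 0.17), Hnrnpr (0.22) and Kif1b (0.23) were nearest to Cntfr. Slc35e2 (0.16), Scmh1 (0.23) and Ptafr (0.25) were nearest to Il11ra1, and Gpx7 (0.15), Pik3r3 (0.17) and Dnajc16 (0.18) to Csf3r. The nearest genes were farther off for the others. Txndc8 (0.56), 4930522H14Rik (0.64) and Efcab14 (0.66) were nearest to Jak1, Tmem38b (0.58), Saxo1 (0.66) and Susd1 (0.67) to Leprot, and Cer1 (0.43), Sh3gl2 (0.44) and Zdhhc21 (0.45) to Lepr. Tmem38b, the nearest to Leprot, scored 0.91, 1.20, 1.12 and 2.27. Deletion replicate 2 was the highest there, but the search matched on that profile too, so this follows from the selection.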

How the data were processed

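The deposited table holds timing scores, 1 column per profile, for chromosome 4 at 5 kb steps. Per the file headers and name, the authors scaled the scores to a common interquartile range on mm10. Bowtie2, SAMtools and bedtools are named in the submitters' processing notes, without versions. Smoothing and log base are not given in the sources used here. Columns were matched to genotype and number by name. The libraries of profile 1 carry no number in their titles.

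Of 31301 positions, 30659 had a score in every profile. A position was taken as the start of its bin. Gene scores were compared with limma 3.58.1 (lmFit, eBayes) in R 4.3.3 over all 1301 protein-coding genes, and positions likewise, two-sided, with Benjamini-Hochberg adjustment. The SE is limma's moderated one. The stretch was compared by exact permutation. The fit was tested on simulated scores. Named genes were the 6 members, genes of the stretch, adjacent genes, the pathway list, and the 3 most similar genes per member; some single genes are not reported here. Members and lists were chosen with earlier results of these data known. The interval beside Csf3r, the bins beyond Il11ra1 and the place of deletion replicate 2 were described after their values were seen. Alternatives were median centring, quantile normalization, the replicate number as a block, each profile left out, positions as bin ends, 50 kb of flank, the bin of the gene start, limma's trend and robust options, all RefSeq genes, and the stretch without the bins of Jak1 and Lepr.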

Additional observations from a re-analysis of the deposited data

How the results depend on the processing

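With 2 profiles per genotype, no test here could tell a shift of 1 profile from a shift of the genotype, and no group was large enough to test for an outlying profile. Jak1 and Leprot kept a positive difference under all 12 alternatives, from 0.02 to 1.50 and from 0.11 to 1.75. The replicate block, limma's trend and robust options and all RefSeq genes leave these differences at 0.76 and 0.93. Those alternatives could not have changed the sign. The lowest values, 0.02 and 0.11, came without deletion replicate 2. Neither gene passed the threshold in any fit that kept deletion replicate 1 (limma). The number of called genes ranged from 0 to 4 and of called members from 0 to 2 over the fits without 1 profile, and the stretch difference from 0.07 to 1.20. It was 0.52 after median centring, 0.46 after quantile normalization and 0.65 without the bins of Jak1 and Lepr.

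The replicate number as a block assumes a pairing that no label gives. Deviations of same-numbered profiles from their group means correlated at 0.637 across positions, which are not independent. Exchanging the numbers within 1 genotype would only reverse the sign of this value, so it does not establish a pairing. With the replicate block limma called 38 of the 134 positions of the stretch, 785 of all 30659 positions (2.56%) and 0 genes, with 165 genes at an unadjusted p under 0.05, and the adjusted p was 0.371 for Jak1 and 0.343 for Leprot.

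Differences near 0 changed sign. Cntfr and Il11ra1 were at -0.0870 and -0.0336 after median centring and at -0.119 and -0.0912 after quantile normalization, and Csf3r at 0.0250 with 50 kb of flank. Without 1 profile, Cntfr ranged from -0.40 to 0.45, Il11ra1 from -0.0910 to 0.24, Csf3r from -0.33 to 0.22 and Lepr from -0.41 to 1.23. Their causes were not tested. No read depth was analysed.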
